A study of Bos taurus with 8 samples.

Results

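Pregnancy-associated glycoproteins (PAG) and interferon tau are secreted by the ruminant trophoblast, and 5 of their genes were followed here between the inner cell mass (ICM) and the trophectoderm (TE) of the bovine blastocyst. The genes PAG2, PAG12, PAG8, PAG11 and IFNT were chosen by the gene symbol that the array's platform annotation gives to a probe. They were measured by 6 probes, since PAG11 has 2, among 43794 probes that carry 15229 gene symbols in all. The groups were 4 pools labelled ICM and 4 pools labelled TE. Both came from expanded blastocysts that had developed in vivo in superovulated, inseminated Holstein cows and were flushed at day 7.5 after insemination. The cows had been given FSH and prostaglandin injections for superovulation. No treatment was compared, and the paper describes no genetic change. Each pool held tissue of several embryos. By microsurgery, each blastocyst was cut into a part of TE alone and a part with ICM and TE. Only the latter was incubated with antiserum and complement, which lysed its TE cells (immunosurgery). The tissues were thus handled differently, and an effect of this cannot be told apart from the tissue itself. No source used here says whether pools came from separate cows. The p-values measure how far the difference between ICM and TE varied between the pool pairs described next, and not a spread between cows. RNA was amplified, labelled with the dyes Cy3 and Cy5 and hybridised in pairs, 1 ICM pool with 1 TE pool. Each pool pair was read on 2 arrays with the dyes exchanged, which makes 8 arrays and 16 channels.

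In ruminants, interferon tau is the signal of the conceptus to the uterus. It is a type I interferon secreted by the trophectoderm before attachment, and it acts on the endometrium to keep the corpus luteum and so the pregnancy. The PAGs form a large family of secreted glycoproteins related to the aspartic peptidases, most of which are thought to lack enzyme activity. PAG2, PAG8, PAG11 and PAG12 belong to the older branch of the family, whose members are known to be expressed across the trophoblast, whereas many other members are known from the binucleate cells of the later placenta.

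All differences below are log2 ratios, ICM label over TE label, with the dyes taken from the sample labels. This direction is opposite to that of the study, so the groups are named here by their labels. The paper also measured some genes by RT-qPCR. It reports EGR1, PLK2, NANOG and STMN1 higher in ICM, and ANXA3, PTPN5 and GATA2 higher in TE. For DNMT3A and HNF4A it reports no difference. Of these genes, NANOG and GATA2 are followed here, and both were opposite to the paper in their direction by label. The marker genes went against the labels as well. Of 12 trophectoderm markers measured, in the RNA labelled ICM 7 were higher and 0 lower, and their mean normalized log2 intensity was 11.41 to 11.55 in the pools labelled ICM and 10.58 to 10.72 in the pools labelled TE. Of 9 epiblast markers, 4 were lower and 0 higher there (9.80 to 10.11 in the pools labelled ICM and 10.85 to 11.25 in the pools labelled TE). NANOG, a core pluripotency factor of the epiblast, had a log2 ratio of -3.50 (SE 0.21, n = 4 pool pairs, limma adjusted p = 0.00317) and was negative on 8 of 8 arrays. If the 2 labels were exchanged, every ratio below would change its sign and keep its size. In bulk tissue, a lower number of expressing cells and less RNA per cell cannot be told apart.

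PAG2, PAG12 and IFNT were higher in the RNA labelled ICM. A difference counted as called when its adjusted p was 0.01 or less in limma's moderated test over the 4 pool pairs, two-sided, with Benjamini-Hochberg adjustment over all 43794 probes. At this threshold 3 of the 6 probes were higher, where 1.92% of all probes were called higher, and 0 of 6 were lower, where 1.35% of all probes were called lower. The genes were chosen with earlier results of these data known. The shares in this paragraph are therefore a description and no test of the genes as a set. At an unadjusted p under 0.05 were 5 of the 6 probes, against 22.7% of all probes in either direction. The median log2 ratio was 0.54 over the 6 probes and 0.01 over all probes. In 2 probes, those of PAG2 and PAG12, all pools labelled ICM lay above all pools labelled TE, as in 6.3% of all probes. In 0 of 6 did all pools labelled ICM lie below, which 6.88% of all probes did. The shares of all probes include dark ones, whereas 5 of the 6 probes were above the limit of the negative control spots, defined below, in every channel. In a fit of the 19831 probes above this limit in all channels of at least 1 label, 1517 were called higher and 1293 lower. The calls needed all of pool pairs 2, 3 and 4. When any 1 of these was left out, no probe of the array reached the threshold in limma, although 8351 to 9320 probes still had an unadjusted p under 0.05. Without pool pair 1, the same 3 probes were called. With median centring of each array in place of loess, 0 of the 6 probes were called. With an intensity trend in limma's eBayes step, 1 of 6 was called, and PAG2 had an adjusted p of 0.126.

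PAG2 showed the largest difference of the 5 genes, as a fold of 3.31 (95% interval 2.67 to 4.10). Its probe, EMBV3_11010, had a normalized log2 intensity of 12.07, 12.31, 12.73 and 11.51 in the pools labelled ICM of pairs 1 to 4. The pools labelled TE of the same pairs had 10.74, 10.62, 10.80 and 9.57. The labels did not overlap, and pair 4 was the lowest pair in either label. The pairs differed by 1.33, 1.70, 1.94 and 1.94 on the log2 scale, which gives a mean log2 ratio of 1.73 (SE 0.12, adjusted p = 0.00411). The difference did not depend on which dye carried which RNA. Its mean was 1.73 with ICM in Cy5 (4 arrays) and 1.72 with ICM in Cy3 (4 arrays). The lowest array value was 1.26 and the highest 1.98. The spot was well lit, at 10.5 to 32.8 times the limit of the negative control spots in channels labelled ICM and at 5.01 to 11.4 times this limit in channels labelled TE. That limit is the mean plus 2 SD of the 153 negative control spots of a channel.

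PAG12 is the gene next to PAG2 in the RefSeq gene table of assembly ARS-UCD2.0. It was higher in the RNA labelled ICM by a fold of 2.41 (95% interval 2.15 to 2.71). Its probe, EMBV3_26361, had a normalized log2 intensity of 10.12, 10.48, 10.84 and 9.51 in the pools labelled ICM of pairs 1 to 4, against 8.99, 9.17, 9.38 and 8.33 in the pools labelled TE. As for PAG2, the labels did not overlap, and pair 3 was highest and pair 4 lowest in either label. The pair differences were 1.13, 1.31, 1.46 and 1.18, with a mean log2 ratio of 1.27 (SE 0.06, adjusted p = 0.00257). Its size differed somewhat between dye orientations, with a mean of 1.07 with ICM in Cy5 and 1.47 with ICM in Cy3. The dye term of a fit over the 8 arrays had an adjusted p of 0.0144 for this probe, which does not pass the threshold. Raw signal was 2.95 to 10.2 times the negative control limit in channels labelled ICM and 1.73 to 3.36 times in channels labelled TE.

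**Figure D1:**
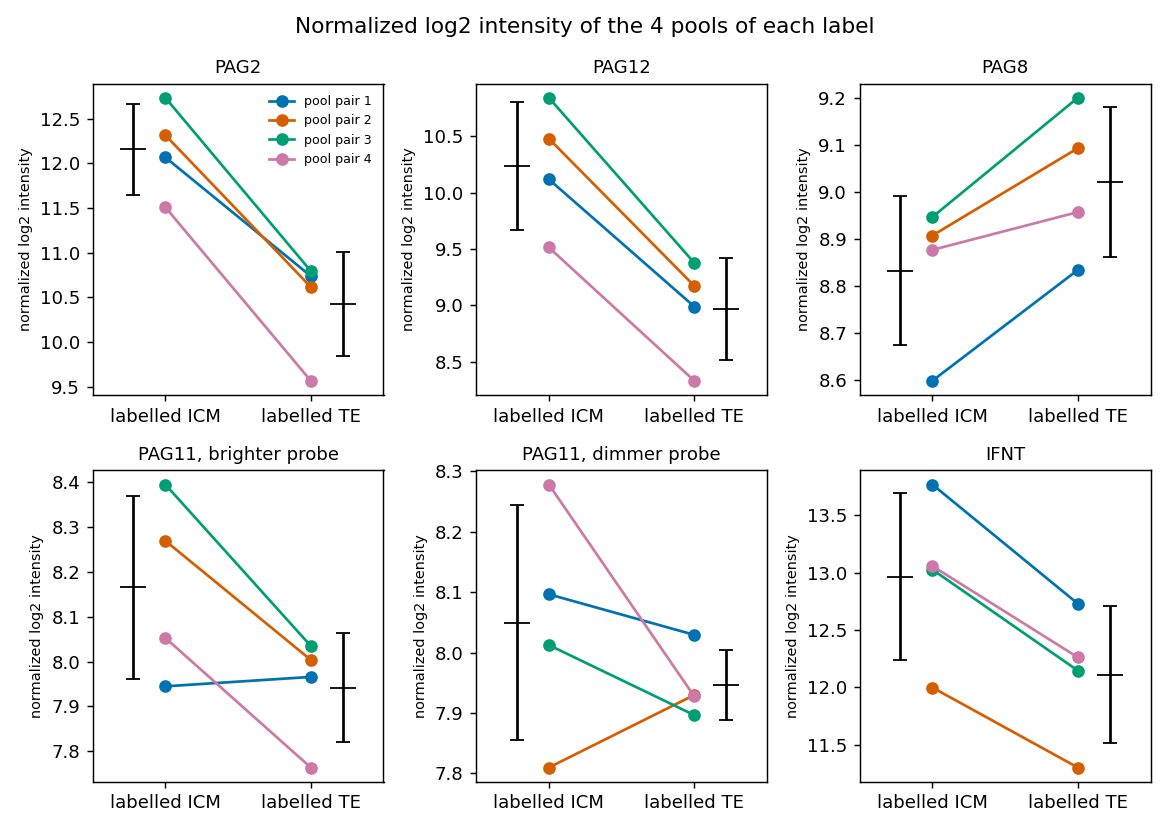
Normalized log2 intensity (y axis, a scale of its own in each panel) of the 4 pools labelled ICM and the 4 pools labelled TE for the 6 probes. A coloured line joins the pools of a pair, each point is the mean of 2 arrays, and black bars give the mean and SD over 4 pools. All 4 pairs fall from left to right for PAG2, PAG12 and IFNT, and the labels are separate only for PAG2 and PAG12.

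IFNT, the interferon tau probe EMBV3_15805, was higher in the RNA labelled ICM by a fold of 1.80 (95% interval 1.61 to 2.02). Its normalized log2 intensity was 13.77, 12.00, 13.03 and 13.06 in the pools labelled ICM of pairs 1 to 4. It was 12.73, 11.30, 12.15 and 12.26 in the pools labelled TE. Here the labels overlapped, since pair 1 was highest and pair 2 lowest in either label, and the pool labelled ICM of pair 2 lay below 3 of the 4 pools labelled TE. The spread between pools within a label (SD 0.73 for ICM and 0.59 for TE) was thus close in size to the difference between labels. Within pairs the difference was steadier, at 1.04, 0.70, 0.88 and 0.80, with a mean log2 ratio of 0.85 (SE 0.06, adjusted p = 0.00451). All 8 arrays were positive. The mean was 0.67 with ICM in Cy5 and 1.03 with ICM in Cy3, and the dye term had an adjusted p of 0.0122. IFNT was far above background in every channel, at 18.9 to 98.1 times the limit in those labelled ICM and 11.4 to 52.3 times in those labelled TE. Raw signal was higher in the ICM channel than in the TE channel on all 8 arrays, but the limits of the 2 channels differ. As a multiple of the limit, the order was reversed on the array of pair 4 with ICM in Cy3, at 31.9 for ICM and 35.0 for TE. In the RefSeq table the symbol IFNT is a synonym of both IFNT2 and IFNT3, so the probe could not be assigned to a single interferon tau gene.

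PAG8 was not called. Its probe, EMBV3_25861, had a normalized log2 intensity of 8.60, 8.91, 8.95 and 8.88 in the pools labelled ICM of pairs 1 to 4, against 8.83, 9.09, 9.20 and 8.96 in the pools labelled TE. The labels overlapped. The mean log2 ratio was -0.19 (SE 0.04, adjusted p = 0.0458), but this mean joins values of opposite sign. With ICM in Cy5 the 4 arrays gave -0.57, -0.64, -0.58 and -0.33. With ICM in Cy3 the same 4 pool pairs gave 0.10, 0.27, 0.08 and 0.17. The dye term passed the threshold for PAG8 (adjusted p = 0.00102) and for no other of the 6 probes, where 5.32% of all probes passed. Opposite signs on all arrays of either orientation were found in 15.3% of all probes. Dye orientation and slide cannot be told apart, because the 4 arrays of an orientation share a slide. Raw signal was 1.84 to 2.70 times the limit in channels labelled ICM and 1.88 to 4.28 times in channels labelled TE, so the probe was dim but above the limit in all 16 channels.

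**Figure D2:**
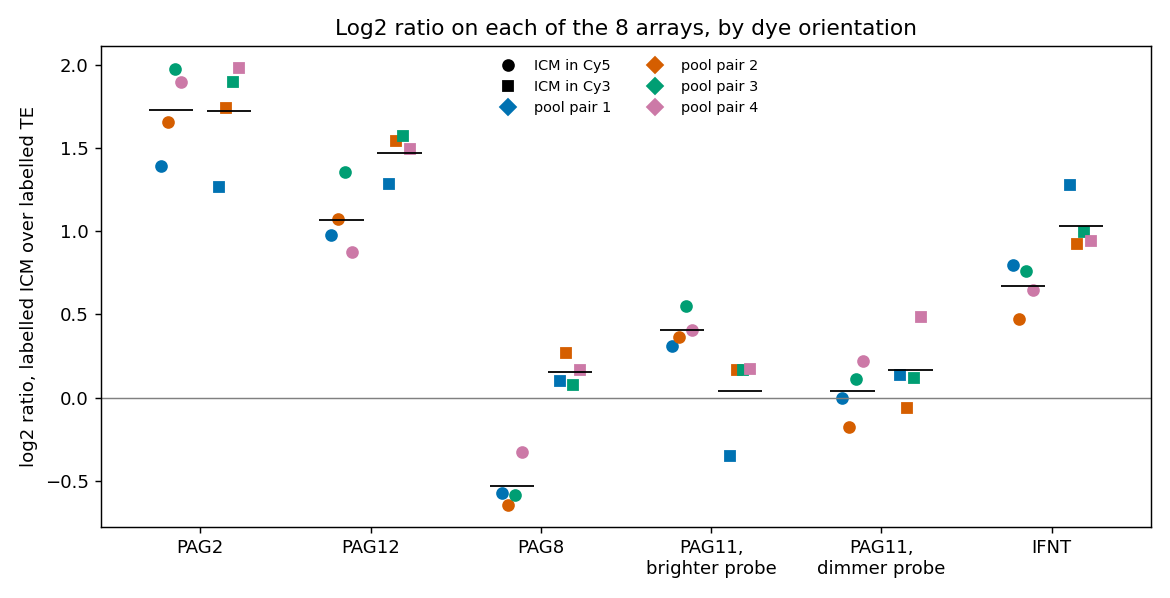
Log2 ratio of the ICM channel over the TE channel, by label (y axis), on each of the 8 arrays for the 6 probes. Circles are arrays with ICM in Cy5, squares arrays with ICM in Cy3, colours mark the pool pair and black lines give the mean of 4 arrays. PAG2 has the same mean in either orientation (1.73 and 1.72), and PAG8 changes sign (-0.53 and 0.15).

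PAG11, read by 2 probes, was not called by either. The brighter probe, EMBV3_16858, had a normalized log2 intensity of 7.94, 8.27, 8.40 and 8.05 in the pools labelled ICM of pairs 1 to 4, and pools labelled TE of 7.76 to 8.03. Its log2 ratio was 0.22 (SE 0.07, adjusted p = 0.148), positive on 7 of 8 arrays, with a mean of 0.41 with ICM in Cy5 and 0.04 with ICM in Cy3. The exception was pair 1 with ICM in Cy3, at -0.35. The dimmer probe, EMBV3_27136, had a log2 ratio of 0.10 (SE 0.08, 95% interval -0.11 to 0.32, adjusted p = 0.578) and was positive on 5 of 8 arrays. Its pools ran from 7.81 to 8.28 when labelled ICM and from 7.90 to 8.03 when labelled TE, and the labels overlapped for either probe. The dimmer probe exceeded the negative control limit in only 5 of 8 channels labelled ICM and 3 of 8 labelled TE. The brighter probe exceeded it in all 16 channels, by at most 1.79 times. The background offset understates the fold of dim probes. The 95% interval of the brighter probe (log2 ratio 0.04 to 0.41, unadjusted p = 0.0277) lay above 0, but the difference did not pass after adjustment over all probes.

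**Figure D3:**
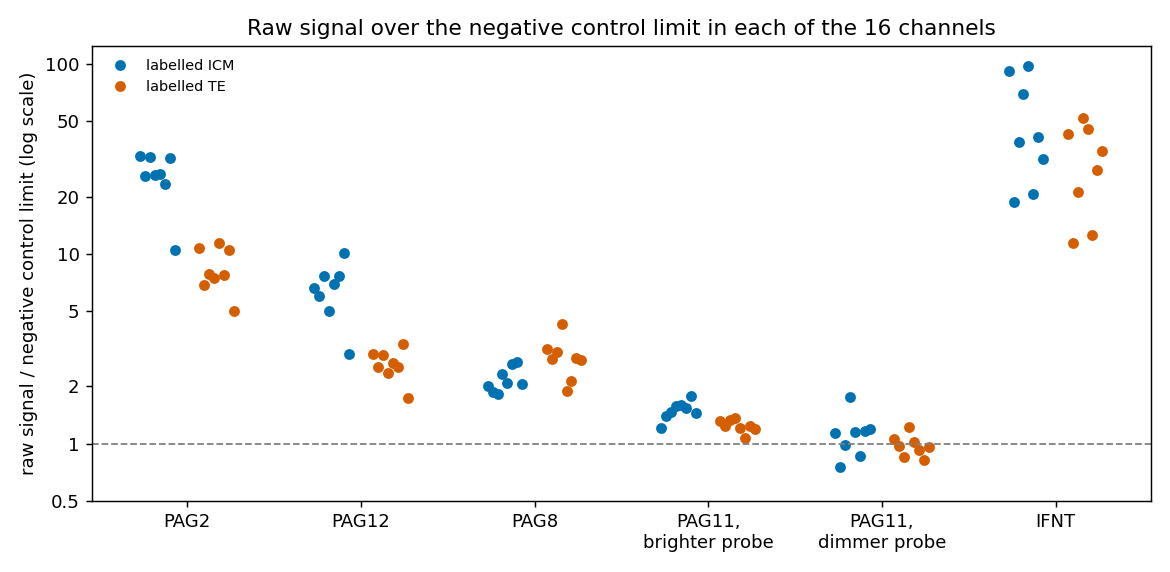
Raw spot signal divided by the negative control limit of its channel (y axis, log scale) for the 6 probes, with 8 channels labelled ICM (blue) left of 8 channels labelled TE (orange). The dashed line is the limit. IFNT lies 11.4 to 98.1 times above it, PAG8 1.84 to 4.28 times, and part of the channels of the dimmer PAG11 probe fall below.

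The remaining PAG family was not detected as different, and for most of it the probes were dark. Of 18 other PAG genes looked for, 11 were on the array, and 0 were called in either direction (0 also at an unadjusted p under 0.05). Their log2 ratios ran from -0.05 for PAG5 to 0.03 for PAG7, with a median of 0.00. For 9 of the 11, no label was above the negative control limit in all of its channels. PAG7, which is above the limit in 15 of 16 channels, had a log2 ratio of 0.03 (SE 0.02, adjusted p = 0.502). PAG5 and PAG10 lie on either side of the PAG2 and PAG12 pair in the RefSeq table. PAG5 had a log2 ratio of -0.05 (SE 0.03, adjusted p = 0.442) and was above the limit in 14 channels. PAG10, which belongs to the older branch together with PAG2, was above the limit in 0 channels and is given no fold. The symbol PAG1 is shared with an unrelated adaptor gene and was left out. The RefSeq table places 19 other array genes from PAG10 to PAG8, a stretch examined after the values were seen. They include the 11 PAG genes already counted above. Of the 19, 0 were called and 1 had an unadjusted p under 0.05. This was LOC100296410, with a log2 ratio of -0.85 (SE 0.16, adjusted p = 0.0436), negative on 8 of 8 arrays.

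The level of PAG2 over the 8 pools was most like that of SMPDL3A, a phosphodiesterase related to acid sphingomyelinase. Likeness was taken as Pearson's r of normalized log2 intensity over the 8 pools, among 13898 probes with a symbol that exceeded the limit in at least 8 channels. These points share the labels and the arrays, so r is given as a description. It was 0.983 for SMPDL3A, 0.982 for PAG12, 0.981 for CHMP2A, 0.978 for BRCC3 and 0.977 for STAR. CHMP2A is a subunit of the membrane-remodelling ESCRT-III complex, BRCC3 a deubiquitinase, and STAR carries cholesterol into mitochondria for steroid synthesis. PAG12 was thus the second of all candidates. Whether the probes of PAG2 and PAG12 share sequence was not tested. SMPDL3A had a log2 ratio of 1.31 (SE 0.04, adjusted p = 0.00127) and STAR of 1.35 (SE 0.15, adjusted p = 0.0112). Another STAR probe was called higher, with a log2 ratio of 1.47 (SE 0.09, adjusted p = 0.00326). IFNT followed PAG2 less closely (r = 0.464), as pair 1 was highest for IFNT and pair 3 for PAG2.

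For IFNT, the 5 genes of most similar level all lie inside the type I interferon gene cluster of the RefSeq table. They are LOC617112 (r = 0.997), LOC781778 (r = 0.992), LOC618943 (r = 0.985), LOC618801 (r = 0.985) and LOC100299481 (r = 0.981), protein-coding genes that carry no name there. Each was highest in pair 1 and lowest in pair 2 in either label, as IFNT was. LOC617112 had a normalized log2 intensity of 11.28, 9.66, 10.68 and 10.71 in the pools labelled ICM of pairs 1 to 4, against 10.41, 9.20, 9.90 and 9.94 in the pools labelled TE. Its log2 ratio was 0.72 (SE 0.08, adjusted p = 0.00992), and those of the other 4 were 0.41 to 0.63 with adjusted p of 0.0191 to 0.0463. Whether these probes share sequence with the IFNT probe was not tested.

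**Figure D4:**
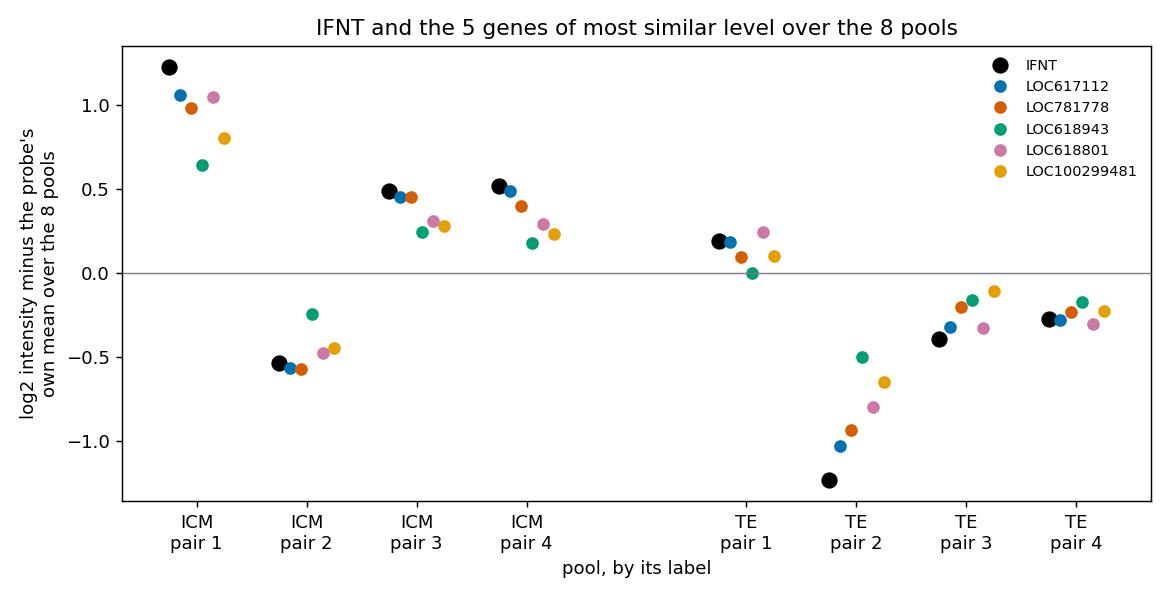
Normalized log2 intensity of each probe minus its own mean over the 8 pools (y axis) for IFNT (black) and the 5 genes of most similar level, in the 4 pools labelled ICM (left) and the 4 labelled TE (right). In either label, pair 1 is highest and pair 2 lowest for all 6 probes.

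The cluster as a whole was split between probes with signal and probes without. Between IFNE and IFNB1, the RefSeq table places 23 genes of the array beside IFNT itself, a stretch that was examined after the values were seen. Of their 23 probes, 1 was called higher (LOC617112), 0 were lower, and 10 had an unadjusted p under 0.05, as 22.7% of all probes did. The 11 probes above the limit in all 16 channels included 8 that were positive on all 8 arrays. Of all probes, dark ones included, 16.8% had the same sign on all 8 arrays, in either direction. Among these was IFN-tau-c1, a further interferon tau gene, with a log2 ratio of 0.32 (SE 0.07, adjusted p = 0.0611). Its pools labelled ICM had a normalized log2 intensity of 8.45 to 9.03, and those labelled TE had 8.31 to 8.65. KLHL9, a subunit of a ubiquitin ligase and no interferon, ran the other way at -0.36 (SE 0.09, adjusted p = 0.0965). IFNAC, an interferon alpha gene, was above the limit in all 16 channels with a log2 ratio of 0.00 (SE 0.03), a mean of -0.16 with ICM in Cy5 and 0.15 with ICM in Cy3, and its dye term passed the threshold (adjusted p = 0.00481). A further 6 probes, IFNB1 and IFNB3 among them, were above the limit in 0 channels. Of 23 other interferon and receptor genes looked for by name, 9 were on the array, with IFNAC, IFNB1 and IFNB3 of the cluster above among them. Of the 9, 0 were called in either direction and 2 had an unadjusted p under 0.05. These were the receptor subunits IFNAR1 (0.34, SE 0.07, adjusted p = 0.0422, positive on 8 of 8 arrays) and IFNAR2 (0.26, SE 0.06, adjusted p = 0.0827, positive on 6 of 8). IFNAR2 was above the limit in only 8 of 16 channels, and its mean was -0.09 with ICM in Cy5 and 0.61 with ICM in Cy3.

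Factors known to act on interferon tau transcription differed in both directions. Of 16 measured, the RNA labelled ICM had 5 higher and 2 lower, and 9 were not called. The list shares several members with the trophectoderm markers given above, TFAP2C among them. Genes are counted by their brightest probe. By that probe TFAP2C was not called (0.67, SE 0.08, adjusted p = 0.0136), but another of its 3 probes was called higher (0.59, SE 0.04, adjusted p = 0.00411). TFAP2A, a transcription factor of the trophoblast, had a log2 ratio of 2.05 (SE 0.06, adjusted p = 0.00127), though only 1 of its 3 probes was called. GATA2, which with GATA3 is known to activate interferon tau genes, had a log2 ratio of 1.80 (SE 0.09, adjusted p = 0.00238), and GATA3 had 0.82 (SE 0.03, adjusted p = 0.00168). DLX3 and CDX2, homeobox factors known to drive the interferon tau promoter, were higher by 0.90 and 0.48. POU5F1, known to restrain that promoter, was lower at -0.84 (SE 0.07, adjusted p = 0.00627), and so was the coactivator CREBBP at -0.64 (SE 0.06, adjusted p = 0.0073). ETS2, the best known activator of the promoter, was not called, with a log2 ratio of -0.55 (SE 0.23, adjusted p = 0.268) that was negative on 8 of 8 arrays.

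Other secreted products of the ruminant trophoblast were mostly dark on these arrays. Of 11 measured, 0 were called higher and 1 lower, and for 9 no label was above the limit in all of its channels. TKDP1, a trophoblast Kunitz domain protein, had a log2 ratio of 0.73 (SE 0.22, adjusted p = 0.128) and was positive on 8 of 8 arrays. TKDP2 was called lower at -0.56 (SE 0.02, adjusted p = 0.00168), but the mean was -1.14 with ICM in Cy5 and 0.03 with ICM in Cy3, and its dye term passed the threshold (adjusted p = 0.000636). The prolactin-related proteins and placental lactogen of the list ran from -0.04 to 0.03. Among 7 other genes of the pepsin family of aspartic peptidases, to which the PAGs belong, 1 was called higher and 0 lower. It was CTSD, the lysosomal protease cathepsin D, with a log2 ratio of 1.17 (SE 0.05, adjusted p = 0.00187, positive on 8 of 8 arrays). PGA5, which lies next to PAG8 in the RefSeq table, was above the limit in 0 channels.

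**Figure D5:**
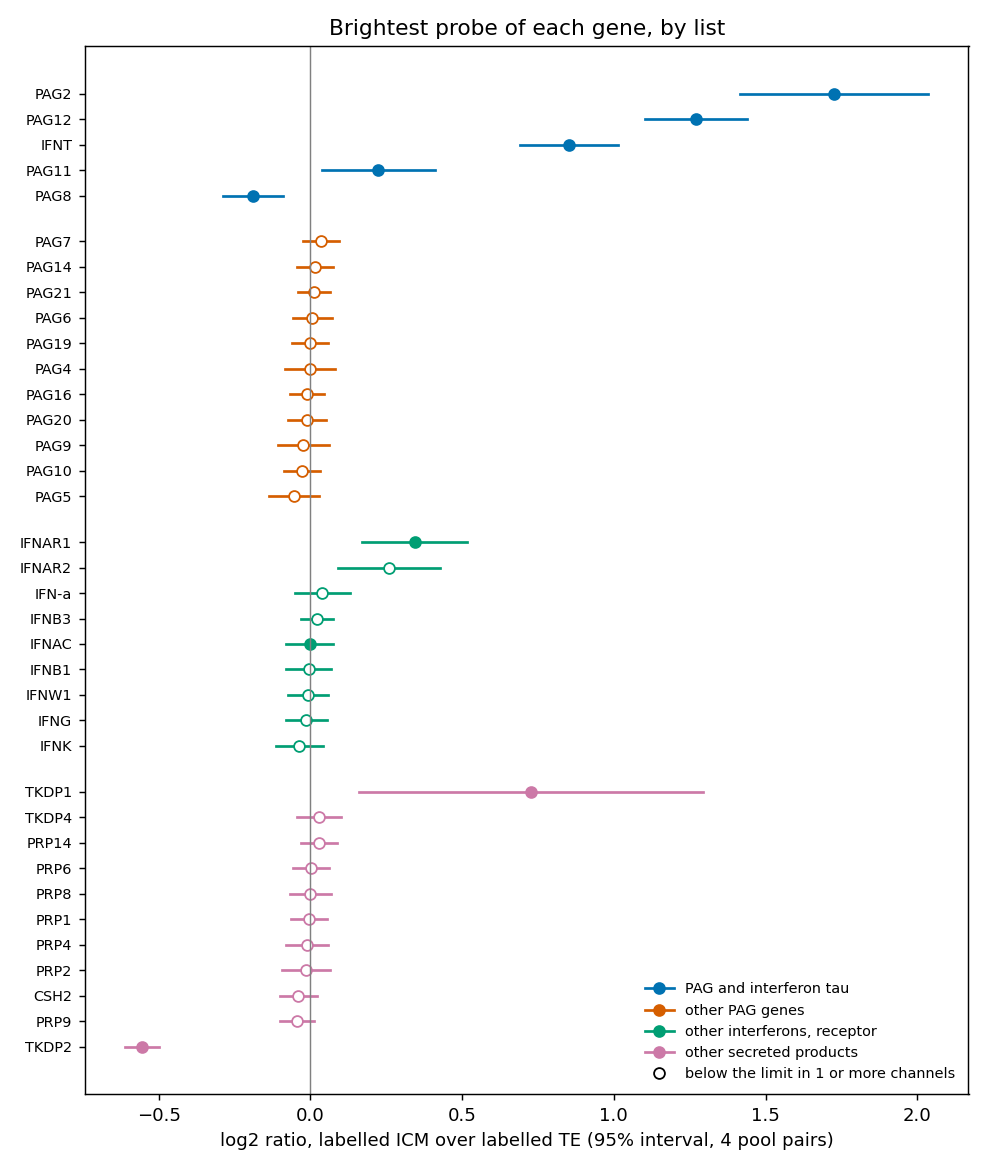
Log2 ratio, ICM label over TE label, with its 95% interval over 4 pool pairs (x axis) for the brightest probe of each gene, by list. Filled points were above the negative control limit in all 16 channels. PAG2, PAG12 and IFNT lie at 0.85 to 1.73, and the 11 other PAG genes lie between -0.05 and 0.03 with open points only.

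Markers of other cell types were measured beside these genes. Of 7 hypoblast markers, 1 was lower and 0 higher in the RNA labelled ICM (mean log2 intensity 8.79 to 9.03 in the pools labelled ICM and 9.39 to 9.50 in the pools labelled TE). Of 6 blood cell markers, 0 were called in limma and 0 had an unadjusted p under 0.05, and their mean was 8.05 to 8.62 in the pools labelled ICM and 8.04 to 8.67 in the pools labelled TE. Of 7 endometrial markers, 0 were called and 1 had an unadjusted p under 0.05 (mean 7.86 to 7.88 in the pools labelled ICM and 7.92 to 8.26 in the pools labelled TE). This was VIM, an intermediate filament gene of mesenchymal cells, with a log2 ratio of -1.36 (SE 0.44, adjusted p = 0.159), negative on 8 of 8 arrays and above the limit in 11 channels. COL1A1 was above the limit in 15 channels with a log2 ratio of -0.02, and PAEP, PGR and FOXL2 were above it in 0 channels. Of 6 cumulus and granulosa cell markers, 0 were higher and 1 lower (mean 8.10 to 8.17 in the pools labelled ICM and 8.07 to 8.18 in the pools labelled TE). An unadjusted p under 0.05 was found for 2 of them, in opposite directions. INHBA, the one called, had a log2 ratio of -0.47 (SE 0.04, adjusted p = 0.00774). CYP19A1 had 0.49 (SE 0.06, adjusted p = 0.0126) and was positive on 8 of 8 arrays. The paper names CYP19A1 among the genes of estrogen synthesis that it reports as upregulated in TE. The part of these cell types in the differences of PAG2, PAG12 and IFNT was not tested.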

How the data were processed

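The authors amplified and labelled the RNA, scanned the slides and deposited, per array, the raw intensity of each spot and its local background in Cy3 and Cy5, uncorrected. They also deposited normalized log2 ratios, which followed the log2 Cy5 over Cy3 ratio of the scanner files (r 0.730 to 0.856 across probes, medians -0.0257 to 0.00451), so direction and centring were inferred. These served as an alternative. The submitters' processing notes name limma, and name no version.

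Mean intensities were corrected by normexp (offset 50, mean local background), normalized by loess and Aquantile, turned to ICM over TE by the dye labels, averaged over the 2 arrays of a pool pair and tested for a mean of 0 (limma 3.58.1, R 4.3.3). Control spots and spots marked as ignored were left out. The offset shrinks the fold of dim probes, and 48.2% to 65.6% of probes exceeded the negative control limit per channel. The number of arrays limits the precision. Steps were also run on simulated arrays with known changes, and the outcome is not given here. Those arrays held no dye effect of single probes, so they do not test how such effects are handled.

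Replicate numbers mark pool pairs. Deviations of the 2 arrays of a number correlated with r = 0.839, 0.656, 0.553 and 0.555, against -0.548 to 0.158 between numbers. The numbers pair the arrays.

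Of the genes chosen, each probe is reported. From each other list, members called are counted and up to 3 of smallest p are named by their brightest probe, with further genes named after their values were seen. Members and lists were chosen with earlier results of these data known. Alternatives covered background, normalization, filters, dye, the test and single pool pairs.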

Additional observations from a re-analysis of the deposited data

Results flagged for a closer look

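Among 30 groups of 4 values (pool pairs, pools of a label and arrays of a dye orientation, for 6 probes), 2 had an extreme value whose gap to its neighbour, as a share of the group's range, exceeded Dixon's 95% critical value. Chance flags about 5% of such groups. For PAG2 in the pools labelled TE, pair 4 (9.57) lay below the others (10.62 to 10.80), with a share of 0.854. For the brighter PAG11 probe on the arrays with ICM in Cy3, pair 1 (-0.35) lay below the others (all 0.17), with a share of 0.992.

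PAG8 differed between dye orientations. Its mean log2 ratio with ICM in Cy5 minus that with ICM in Cy3 was -0.69, with an adjusted p of 0.00102 for the dye term in limma over 8 arrays, and all 4 pool pairs were negative in the one orientation and positive in the other. The cause was not tested.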

How the results depend on the processing

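PAG2, PAG12 and IFNT kept their direction in each of the 19 alternatives to their log2 ratio. Several of these could not change the ratio, so they do not test its direction. They were the filter on the negative control limit, the intensity trend, the fits over 8 arrays and the lack of normalization between arrays. The last repeated the main fit exactly, so its calls were kept by construction. The call was kept in 14 of 19 for PAG2, 14 of 19 for PAG12 and 15 of 19 for IFNT. With median centring of each array in place of loess, the log2 ratio was 1.80 for PAG2, 1.35 for PAG12 and 0.918 for IFNT, but 0 of the 6 probes and only 1 of all probes passed the threshold, with 7190 probes at an unadjusted p under 0.05 in limma. With an intensity trend in eBayes, PAG2 (1.73, adjusted p = 0.126) and PAG12 (1.27, adjusted p = 0.0108) lost the call, 1 of the 6 probes was called, and 705 of all. Leaving out a pool pair gave 1.65 to 1.86 for PAG2, 1.21 to 1.32 for PAG12 and 0.79 to 0.904 for IFNT, with 0 to 3 of the 6 probes and 0 to 828 of all probes called. Over these, the largest adjusted p was 0.0297 for PAG2, 0.0217 for PAG12 and 0.0321 for IFNT. PAG8 was reversed on arrays with ICM in Cy3 alone (0.154). The count of all probes called, 1433, became 4029 with the deposited log ratios, 2810 among probes above the negative control limit, 4714 at an adjusted p up to 0.05 and 458 with a fold of at least 2 required. A fit of 8 arrays with the replicate pairs as a block called 5320, and 4531 with a dye term added, where the same number of the 6 probes, 3, was called. With the median in place of the mean local background, a choice made after seeing the data, it was 2897. The dimmer PAG11 probe could not be fitted among probes above the limit. The causes were not tested. Folds of dim probes are understated, which limits PAG8, PAG11 and most other PAG genes.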
